A study of Mus musculus with 13 samples.

Results

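This account covers mouse chromosome 12 below the immunoglobulin heavy chain (Igh) locus, in whole-genome sequence calls of 6 acute leukaemia libraries and 1 control library. Every call on chromosome 12 that starts before the Igh locus was taken, by position in build mm10. The last single-nucleotide variant (SNV) inside lay at position 113229561 and the first outside at position 113283865. These calls comprised 9318 of 294548 SNV calls, 32957 of 780175 insertion and deletion (INDEL) calls and 22 of 1643 copy number rows, summed over the 7 libraries. They stood for 2880 distinct SNVs and 19849 distinct INDELs. The region was chosen on measured values: earlier readings of these files showed deeper coverage, an uneven alternative read share and many private SNVs there in AUL, and set copy number rows beside them. These measures are therefore given below as a description, with no test.

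The cells were GFP+ bone marrow cells of C57BL/6 mice, at 8 to 10 weeks per the labels, and the study is about leukaemias that follow retroviral delivery of N-Myc. B-ALL was sorted as B220+ (B lymphoid), T-ALL as CD3+ (T lymphoid), AML as Mac1+Gr1+ (myeloid) and AUL, an undifferentiated leukaemia, as negative for all of these markers, from 2000000 cells each. Of a mixed phenotype leukaemia, M-MPAL was the Mac1/Gr1+ B220- CD3/4/8- fraction and T-MPAL the Mac1/Gr1- B220- CD3/4/8+ fraction. These fractions and the Empty control, a library of GFP+ cells, came from 1000000 cells each. With 1 library in each group, differences between groups could not be checked against replicates, and none was tested. The labels do not say how many mice gave each library. They name no matched normal DNA, so inherited and acquired variants cannot be told apart, and DNA calls do not show the surface markers of the sort. The protocol, with its number of cells, differs between B-ALL, T-ALL, AML and AUL on one side and both MPAL fractions and the control on the other.

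Chromosome 12 carries Mycn itself, the gene of the transcription factor N-Myc, which pairs with Max, also encoded there, to activate growth and cell cycle genes. It also holds Dnmt3a, a DNA methyltransferase gene mutated in human myeloid leukaemia, Bcl11b, needed for T cell commitment, and Id2, an inhibitor of basic helix-loop-helix factors. Where a diploid cell carries a variant on 1 of its chromosomes, reads of the variant and of the reference allele are equally frequent. An extra copy of a chromosome raises read depth along its whole length and moves that share away from equality, to the side of the copied allele. A change in part of the cells gives smaller shifts of both.

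A few INDELs show the kind of sequence that differed between the libraries. The first 3 are the calls with the most alternative reads among stringent INDELs (defined below) with a reference allele of at least 8 bases and a single variant form, private to AUL outside repeats or shared by 1 pair of libraries and not on all reads. The 2 in-frame coding deletions of the region follow. This rule was set after the calls were seen. Capitals mark the bases that the variant loses or gains, sequences are on the forward strand, each line is the longer allele, and positions are those of the reference allele in mm10.
AUL, 10-base deletion, chr12:73993723-73993745: tGTCCTCCTAGgtcctcctaggt
M-MPAL and T-MPAL, 4-base insertion, chr12:101824572-101824617: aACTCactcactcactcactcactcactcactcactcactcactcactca
B-ALL and AML, 4-base deletion in a Rps6ka5 intron, chr12:100718504-100718515: aCTCTctctctc
B-ALL, 3-base deletion in Twist1, chr12:33958220-33958236: aGGCggcggcggcggcg
T-MPAL, 3-base deletion in Hs1bp3, chr12:8324048-8324076: aGAGgaggaggaggaggaggaggaggagg
The AUL deletion removes 1 of 2 copies of a 10-base unit and stood on 20 of 39 reads (51.3%, 95% interval 34.8 to 67.6). The MPAL insertion adds a unit to a run of actc and stood on 13 of 23 reads in M-MPAL and 11 of 15 in T-MPAL. The Rps6ka5 deletion shortens a run of ct and stood on 11 of 27 reads in B-ALL and 19 of 34 in AML. All of these but the AUL deletion lie in simple runs of short units, where the number of units is hard to read from short reads.

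At SNVs called in all 7 libraries the reads of each library were divided by that library's median at such SNVs on the other autosomes, which was 48 reads in AUL, 53 in T-ALL, 49 in AML, 48 in each of the other 3 leukaemia libraries and 44 in the Empty control. AUL had the highest relative depth in the region. At the 679 shared SNVs there its median was 0.958, while M-MPAL had 0.833, B-ALL 0.813, T-ALL 0.811, AML 0.796, T-MPAL 0.792 and the Empty control 0.841. All 7 medians were below 1. Of the 679 sites, 436 lay in segmental duplications and 340 between 87 and 89 Mb.

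Dividing each site by the median of the other 6 libraries takes out what a site contributes alike in all libraries. Effects of a site that differ between libraries stay in the ratio. This ratio had a median of 1.15 in AUL (quartiles 1.01 and 1.32) and was above 1 at 519 of 679 sites (76.4%). On the other autosomes the AUL median was 0.99, with 47.2% of 19121 sites above 1. In the Empty control the ratio was 1.10 in the region and 1.09 on the other autosomes, so its ratio was as high outside the region as inside. The 5 other leukaemia libraries had medians from 0.933 (T-MPAL) to 0.995 (M-MPAL) in the region. At 282 shared INDELs the AUL median was 1.21, with 76.6% of sites above 1, against 1.01 on the other autosomes. The Empty control had 1.06 at these INDELs.

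The higher depth of AUL was spread along the chromosome. In 12 of 12 bins of 10 Mb the AUL median was above 1, from 1.03 to 1.39 at SNVs and from 1.15 to 1.34 at INDELs. The lowest SNV bin ran from 20 to 30 Mb, where 91 shared SNVs in duplicated sequence had a median of 121 reads in AUL and 149 in the Empty control. AUL was the highest of the 7 libraries in 9 of 12 bins at SNVs and in 9 of 12 at INDELs, and the Empty control was above 1 in 10 SNV bins and 6 INDEL bins. Bins hold unequal numbers of sites, at SNVs from 6 (the last bin) to 357 (80 to 90 Mb). Outside segmental duplications the region left 243 shared SNVs, where the ratio was 1.18 in AUL and 1.15 in the Empty control. At these SNVs the control was thus close to AUL. It was not at the 246 shared INDELs outside segmental duplications, where the ratio was 1.24 in AUL and 0.966 in the Empty control.

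**Figure D1:**
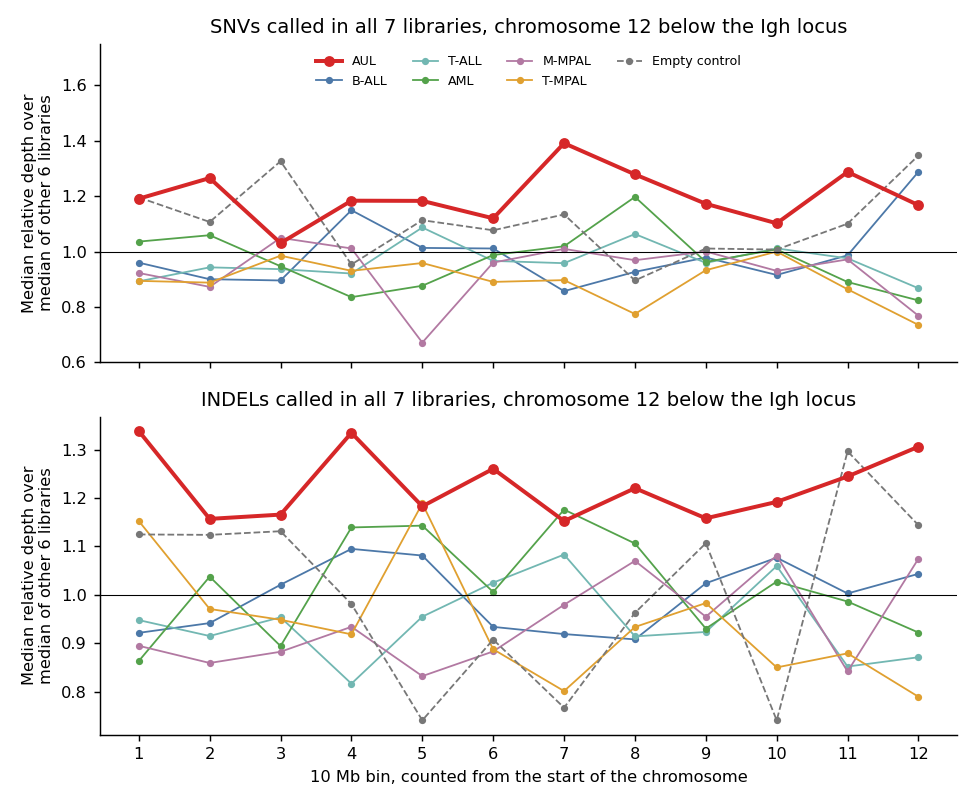
Median depth ratio (relative depth of a library over the median of the other 6) in 10 Mb bins along chromosome 12 below the Igh locus, at SNVs (top) and INDELs (bottom) called in all 7 libraries. The thick line, AUL, lies above 1 in all 12 bins of both panels, from 1.03 to 1.39 at SNVs, while the dashed line of the Empty control falls on both sides of 1.

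Among the autosomes, only chromosome 15 had a higher AUL ratio than chromosome 12. Over all of chromosome 12 the AUL median was 1.15, against 1.27 on chromosome 15 and 1.12 on chromosome 2, and the lowest was 0.957 on chromosome 1. At INDELs it was 1.23 on chromosome 12, 1.30 on chromosome 15 and at most 1.05 on any other autosome. Chromosome 15 was also raised in M-MPAL (1.19) and T-MPAL (1.31), which had 0.993 and 0.936 on chromosome 12.

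**Figure D2:**
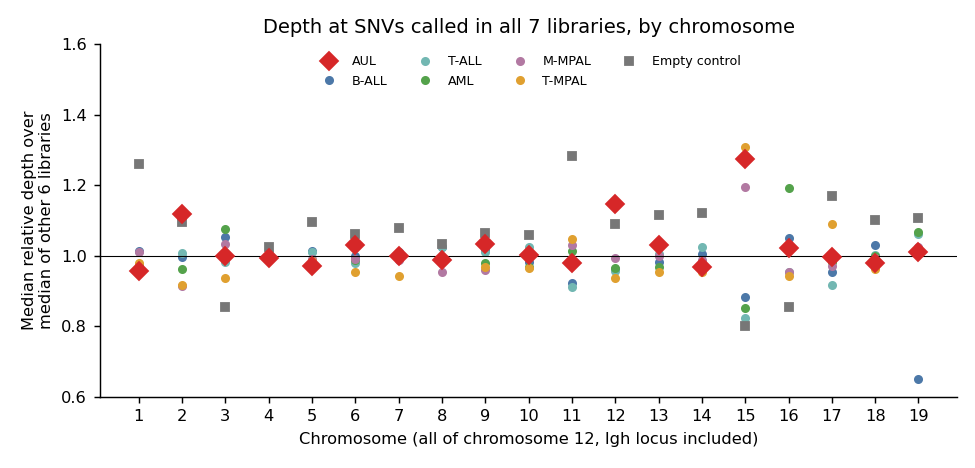
Median depth ratio at SNVs called in all 7 libraries, by autosome, with 1 point per library (diamonds AUL, squares Empty control, circles the other leukaemias). AUL lies near 1 on most chromosomes, at 1.15 on chromosome 12, 1.12 on chromosome 2 and 1.27 on chromosome 15, and the Empty control varies from 0.801 to 1.28.

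The share of alternative reads was then read at SNVs of AUL that no other library had, with at least 10 reads, a Phred quality of at least 100 and no segmental duplication. In AUL 206 such SNVs lay in the region, with a median depth of 27 reads, against 24 reads at the 3813 on the other autosomes without chromosome 15. Their median share was 0.456 (quartiles 0.393 and 0.556, range 0.229 to 0.944), against 0.471 (0.4 and 0.538) on those autosomes. The medians were close, and the spread was what differed. Between 0.4 and 0.6 lay 114 SNVs of the region (55.3%, exact interval 48.3 to 62.3), against 67.5% (65.9 to 68.9) on the other autosomes. The gap was smaller outside repeats (61.0% against 67.4%) and with at least 10 reads as the only filter (44.3% against 48.5%), and with at least 20 reads it was 53.5% against 67.7%. In the main set, below 0.4 lay 27.2% against 22.3%, and above 0.6 lay 17.5% against 10.2%.

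Among the autosomes only chromosome 15 had a lower share of AUL SNVs in the middle range, with 24.2% of 207, a median share of 0.58 and a median depth of 35 reads. The other autosomes ran from 60.5% (chromosome 19) to 74.7% (chromosome 3), with median depths of 23 to 25 reads. In the 11 full bins of 10 Mb along chromosome 12 the AUL median share was between 0.422 and 0.515, over 13 to 28 SNVs a bin. Under the same filter each other library had few SNVs that it alone had: M-MPAL had 43 (median share 0.464), T-ALL 30 (0.423), T-MPAL 29 (0.455), AML 13 (0.368), B-ALL 9 (0.410) and the Empty control 7 (0.304). On the other autosomes these libraries had 58.4% (M-MPAL), 57.1% (T-MPAL), 55.2% (T-ALL), 51.6% (AML), 35.6% (B-ALL) and 18.4% (Empty control) of such SNVs in the middle range. In the region they had 75.9% (T-MPAL), 65.1% (M-MPAL), 55.6% (B-ALL), 50.0% (T-ALL), 38.5% (AML) and 14.3% (Empty control), on the few SNVs just given. The 55.3% of AUL in the region was thus low for AUL and within the range of the other libraries, though below both MPAL fractions in the region. The part that the depth of the reads and the repeats have in the spread was not tested.

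**Figure D3:**
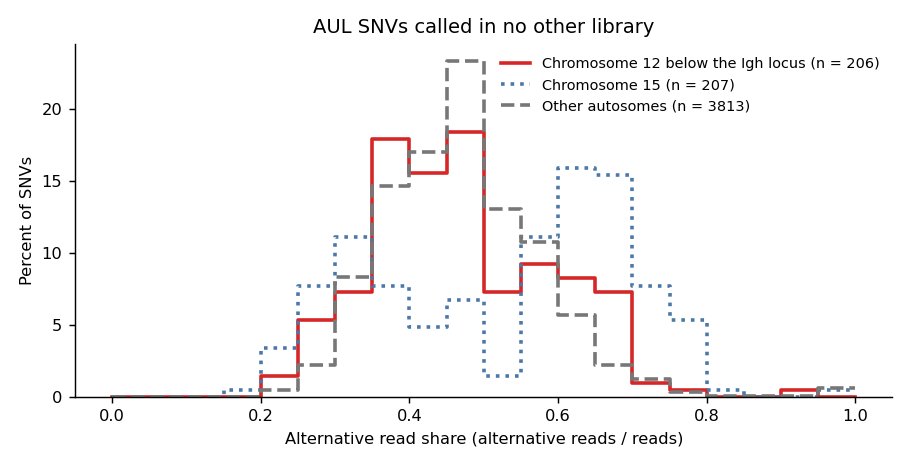
Alternative read share of AUL SNVs called in no other library, as percent of SNVs in steps of 0.05, for chromosome 12 below the Igh locus (n = 206), chromosome 15 (n = 207) and the other autosomes (n = 3813). The curve of chromosome 12 holds 15 of its 206 SNVs above 0.5 and up to 0.55, against 497 of 3813 on the other autosomes. Each step takes in its upper edge, so shares of exactly 0.5 count in the step below, with 38 and 891 SNVs. Below 0.4 and above 0.6 chromosome 12 holds a higher percent of its SNVs than those other autosomes.

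An SNV was called private where its library had at least 10 reads there and none of the other 6 had a call. AUL carried 343 in the region (exact Poisson interval 308 to 381). T-ALL had 129 (108 to 153), M-MPAL 107, AML 92, T-MPAL 86, B-ALL 78 and the Empty control 72 (56.3 to 90.7). These intervals cover counting error only. The AUL count was 4.76 times that of the Empty control and 2.66 times that of T-ALL, the next library. Private SNVs made up 24.5% of the AUL calls of the region with at least 10 reads, against 17.7% of such AUL calls on chromosomes 1 to 19 and X. The share was 10.9% for T-ALL, with 10.8% on all those chromosomes. It was 9.92% (8.88%) for M-MPAL, 8.13% (7.29%) for T-MPAL, 8.12% (6.79%) for AML, 6.85% (6.48%) for B-ALL and 7.06% (6.68%) for the Empty control, with the background in brackets. The shares were near the background in these 6 libraries and above it in AUL, where the reads were also deeper. Shared calls, which enter this background, are spread unevenly. SNVs called in all 7 libraries numbered 4823 on chromosome 4, 2869 on chromosome 1 and 679 in the region. The higher share in AUL therefore does not show that its private SNVs were denser in the region.

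The stringent set kept calls of quality 100 or more, with 4 or more alternative reads making up a share of 0.2 or more, outside segmental duplications. It left 206 private SNVs of AUL (179 to 236) and 7 of the Empty control (2.81 to 14.4), and the other 5 libraries had the counts given with their shares above. The 206 were 4.53% of all stringent private SNVs of AUL (3.95 to 5.18), while the region held 3.32% of all AUL SNV calls of that depth. Other libraries also had a higher percent of stringent private SNVs than of calls in the region, with 5.70% against 2.99% for AML, 4.05% against 3.0% for B-ALL, 3.95% against 2.91% for T-MPAL, 3.38% against 3.0% for M-MPAL and 3.59% against 3.08% for the Empty control, on far fewer SNVs. T-ALL had 2.51% against 2.98%. By count the region was not unusual in AUL. Under the filter used for the read shares, which also gave 206 there, the other autosomes held from 81 (chromosome 19) to 363 (chromosome 5). Chromosome 10 held 205, chromosome 11 held 216 and chromosome 15 held 207. In AUL each of the 11 full bins of 10 Mb held 13 to 28 of them, and the last, shorter bin held 3. Of the 206, 154 were intergenic, 43 intronic and 1 in the coding sequence, and 3 were listed in dbSNP.

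**Figure D4:**
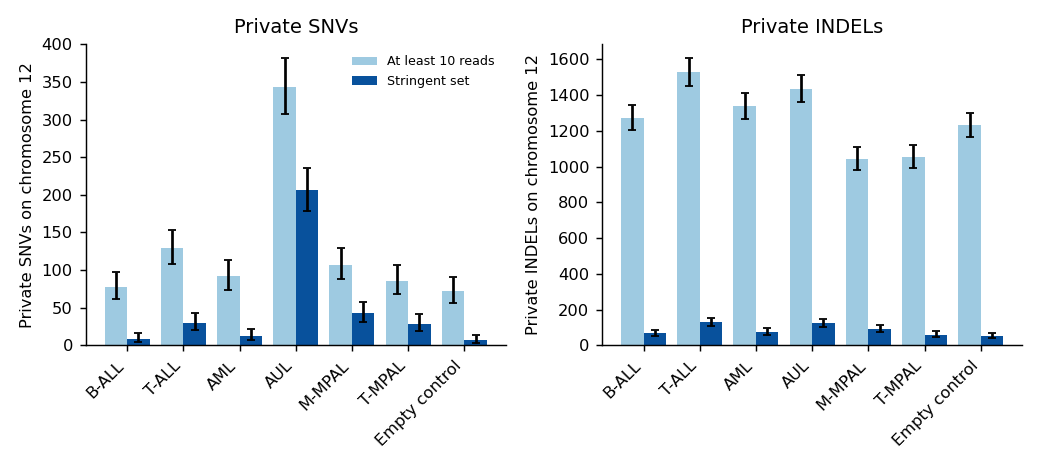
Private SNVs (left) and private INDELs (right) on chromosome 12 below the Igh locus, by library, with exact 95% Poisson intervals (light bars, at least 10 reads; dark bars, stringent set). AUL stands above the other libraries for SNVs (343) and not for INDELs, where T-ALL had 1526 and AUL 1434.

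The kinds of base change of AUL in the region were close to those elsewhere in its genome. C>T changes (G>A on the other strand) made up 47.2% of the private SNVs of AUL in the region (41.8 to 52.7), against 49.3% on the other autosomes. In the stringent set the figures were 60.7% (53.7 to 67.4) and 61.4%. The next classes in the region were T>C with 16.0% and T>A with 13.4%. In the Empty control C>T changes made up 30.6% (20.2 to 42.5) of 72 private SNVs in the region and 31.5% elsewhere.

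For private INDELs T-ALL was the highest library, except with at least 20 reads, where AUL had 590 and T-ALL 554. AUL had 1434, T-ALL 1526, AML 1336, B-ALL 1272, T-MPAL 1052, M-MPAL 1042 and the Empty control 1231. As a share of INDEL calls with at least 10 reads these made 35.3% for AUL, with 33.3% over chromosomes 1 to 19 and X. T-ALL had 35.9% (35.3%), AML 34.5% (34.5%), B-ALL 34.3% (33.0%), T-MPAL 33.4% (32.1%), M-MPAL 33.2% (32.4%) and the Empty control 35.6% (34.8%). From 97.1% (AUL) to 98.1% (B-ALL) of them lay in annotated repeats. The stringent set left AUL 124, T-ALL 129, M-MPAL 91, AML 76, B-ALL 70, T-MPAL 61 and the Empty control 55. The region held 6.14% (5.14 to 7.28) of the stringent private INDELs of AUL, against 3.48% (Empty control) to 4.71% (B-ALL) in the other libraries. Of all INDEL calls with at least 10 reads, private or not, it held 4.75% in AUL. In the other libraries that background ran from 4.01% (AML) to 4.16% (B-ALL), so it was also highest in AUL. Outside repeats the stringent set held 8 private INDELs in AUL, 1 each in T-ALL and B-ALL and 0 in the other 4 libraries. The matching counts over the genome were not computed, so it is not known whether this difference is particular to the region. Changes of 2 bases were the most frequent length in the stringent set, 60 of 124 in AUL and 35 of 55 in the Empty control.

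Mycn, the mouse's own gene of the factor that the retrovirus delivers, lies at chr12:12936093-12941836. No INDEL was called in it in any of the 7 libraries, and no copy number row touched it in the 6 libraries whose tables reach this chromosome. Synonymous SNVs were called in both MPAL fractions at 3 positions of its coding sequence, and no SNV was called in the gene in the other 5 libraries. R124R in exon 2 (position 12940022) stood on 13 of 39 reads in M-MPAL and on 28 of 60 in T-MPAL. G307G in exon 3 (position 12937474) stood on 8 of 33 reads in M-MPAL and on 12 of 33 in T-MPAL. Q390Q in exon 3 (position 12937225) stood on 8 of 37 reads in M-MPAL and on 28 of 57 in T-MPAL. The variants leave the protein sequence as it is.

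Over the 3 Mycn positions together the alternative share was 26.6% in M-MPAL (29 of 109 reads, 18.6 to 35.9) and 45.3% in T-MPAL (68 of 150, 37.2 to 53.7). At the 22 other stringent SNVs of the region that these fractions alone shared M-MPAL had 47.0% and T-MPAL 47.7%. Over all 42 other shared SNVs, with no such filter, M-MPAL had 42.2% and T-MPAL 41.2%, so the share at Mycn was below these SNVs in M-MPAL under both choices, and in T-MPAL below or above them by choice. The reads at Mycn were also deeper, with a median of 37 for M-MPAL and 57 for T-MPAL, against 25.5 (M-MPAL) and 23.5 (T-MPAL) at those other SNVs. At G307G and Q390Q the quality in M-MPAL, 63 and 85, was under that of the stringent set. Reads from a retroviral N-Myc insert and from the gene's own locus cannot be told apart in these calls. The sequence of the insert was not used here.

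**Figure D5:**
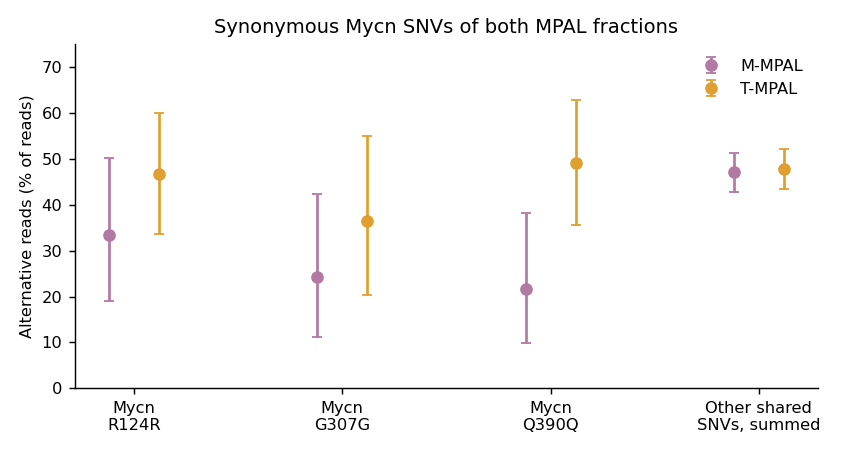
Alternative reads, as percent of reads with exact 95% intervals, at the 3 synonymous Mycn SNVs of M-MPAL and T-MPAL and, at the right, summed over the 22 other stringent SNVs that these fractions alone share in the region. M-MPAL lies between 21.6% and 33.3% at Mycn and at 47.0% elsewhere, and T-MPAL between 36.4% and 49.1% at Mycn and at 47.7% elsewhere.

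Changes in coding sequences were few. The region holds 662 protein-coding genes of the RefSeq table, and 10 distinct coding SNVs were called in 8 of them over all libraries, Mycn included. Of these SNVs, 4 alter the protein. AUL, with the most private SNVs, had 0 protein-altering ones among 343, which allows a share of up to about 0.875% (3 divided by 343, an approximate 95% limit). Over chromosomes 1 to 19 and X such SNVs made up 0.724% of its private SNVs (54 in all), which is below that limit, so a lower share in the region was not detectable at this count. The single coding SNV private to AUL was P24P, synonymous, in exon 2 of Ahr, the gene of the aryl hydrocarbon receptor, on 11 of 27 reads (40.7%, 22.4 to 61.2). T-MPAL had D946N in Pcnx on 5 of 34 reads with a quality of 29.0. The Empty control had the stop codon S80X in Dhrs7, a dehydrogenase/reductase gene, on 7 of 27 reads.

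Twist1 encodes a basic helix-loop-helix factor of mesoderm, and its in-frame deletion in B-ALL, printed above, had 3 of 18 reads (16.7%, 3.58 to 41.4) and a quality of 32.0. The deletion in Hs1bp3 in T-MPAL had 4 of 20 reads and a quality of 49.3. A frameshift in Dbpht2 (T85fs) in AUL rested on 2 reads, and a splice-site deletion in Klhl29, shared by T-ALL and AUL, on 2 reads and 1 read. None of these coding INDELs was in the stringent set, and each lay in an annotated repeat. Q97P in Gm2022, in a segmental duplication, was called in the 6 leukaemia libraries and not in the Empty control, on 6 to 12 reads of 26 to 38.

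Of 41 listed genes of the region (leukaemia and lymphoid genes, Myc partners and targets, DNA repair genes and other regulators), 7 held a private SNV of AUL somewhere in their span (17.1%), against 61 of all 662 protein-coding genes (9.21%). B-ALL and T-ALL had 3 listed genes each (7.32%, against 3.02% and 3.93% of all protein-coding genes), M-MPAL 1 (2.44%, against 3.02%), AML and T-MPAL 0 (against 2.87% and 2.72%) and the Empty control 1 (2.44%, against 2.27%). In the stringent set 5 listed genes were left in AUL (12.2%), against 39 of all 662 (5.89%). These counts of listed genes are small, and listed genes and all genes were not matched for length. Hdac9, a histone deacetylase gene, had 2 neighbouring intronic changes on 17 of 40 and 18 of 43 reads. Rad51b, of homologous recombination repair, had 1 intronic change on 14 of 31, Prkd1, a kinase gene, 1 on 9 of 32, and Traf3, a negative regulator of NF-kappaB signalling in B cells, 1 on 8 of 29. Ahr had the synonymous change given above. Traf3 also had a change in its 3' UTR in the Empty control, on 7 of 23 reads. The 8 genes of the Myc network list had 0 stringent private SNVs, and with 5.89% of all genes hit in AUL and at most 1.21% in any other library a list of this size is too short to show a difference. No listed gene was touched by a copy number row.

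Among SNVs found in exactly 2 libraries, 2 pairs of libraries stood above the rest. M-MPAL and T-MPAL alone shared 45 SNVs of the region with at least 10 reads in each (32.8 to 60.2), and B-ALL and AML alone shared 28 (18.6 to 40.5). The next of the 21 pairs had 13. The same pairs led over the whole genome, with 910 SNVs for the MPAL fractions and 809 for B-ALL and AML, and the region held 4.95% and 3.46% of these, so the pairing was not particular to chromosome 12. In the stringent set the counts were 23 for the MPAL fractions and 11 for B-ALL and AML. The shares were near equality, with a median of 0.467 for M-MPAL, 0.5 for T-MPAL and 0.458 for each of B-ALL and AML. One of the SNVs of the MPAL fractions was V76V in Tc2n, synonymous, on 15 of 32 reads in M-MPAL and 12 of 33 in T-MPAL. At INDELs B-ALL and AML also shared the most, 192, but the 120 of the MPAL fractions came after those of 14 other pairs. Over the whole genome B-ALL and AML shared 4429 INDELs and the MPAL fractions 3160. In the stringent set these pairs shared 18 and 15 INDELs of the region, against at most 4 in any other pair. Over the whole genome the stringent counts were 389 for B-ALL and AML and 437 for the MPAL fractions, and the region held 4.63% and 3.43% of these.

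A few SNVs present in most libraries had different allele states among them. Among the 818 SNVs of the region that passed the stringent filter in at least 1 library, 4 were called in every library but AUL. Such a lack in 1 library alone was as frequent or more so elsewhere, with 16 each for T-MPAL and M-MPAL, 12 for the Empty control and 7 for T-ALL. AML and B-ALL had 3 each. Among the 4 not called in AUL was R647Q in exon 14 of Cdc42bpb, a kinase gene acting downstream of Cdc42 (position 111320033). It stood on all of 41 reads (M-MPAL) and 40 reads (T-MPAL) of the mixed leukaemia, and on 28 of 29 in AML, 31 of 35 in B-ALL, 22 of 43 in T-ALL and 19 of 36 in the Empty control. An intronic change in Tdrd9, at position 111990156, was another of the 4 and was on nearly all reads of the same 4 libraries. It stood on all reads of M-MPAL (33) and T-MPAL (27), and on 24 of 25 in AML, 14 of 16 in B-ALL, 15 of 35 in T-ALL and 10 of 36 in the Empty control.

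Other positions had other contrasts. At position 77850381, intergenic and also not called in AUL, the MPAL fractions had 17 of 17 and 28 of 28 reads, while AML had 14 of 26, B-ALL 11 of 26, T-ALL 10 of 27 and the Empty control 9 of 21. The last of the 4, in an intron of Fut8 at position 77281218, stood on 29 of 31 reads in M-MPAL and 39 of 39 in T-MPAL, while B-ALL had 13 of 23, AML 15 of 33, T-ALL 15 of 34 and the Empty control 7 of 10. At position 92965929 the high shares were those of AML (19 of 19) and B-ALL (32 of 36), while T-ALL had 19 of 37, M-MPAL 12 of 18 and T-MPAL 11 of 26, and neither AUL nor the Empty control had a call of at least 10 reads. At position 95964625 AUL had the variant on 17 of 17 reads, against 12 of 26 in M-MPAL, 10 of 20 in T-MPAL, 10 of 23 in T-ALL and 12 of 15 in the Empty control. The sites were picked for such contrasts, and positions with no call may hold the reference allele or too few reads.

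Copy number rows were short and few. B-ALL had 5 rows, T-ALL 4, AML 3, M-MPAL 3, T-MPAL 2 and the Empty control 5, from 0.501% of the rows of T-MPAL to 2.74% of those of T-ALL. The AUL table ended on chromosome 2, so AUL has no copy number call here to set beside its depth. The longest row spanned 278 kb.

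That longest row was a loss to 1 copy in T-ALL at chr12:67108001-67386000, which took in 114549 bases of Mdga2, a gene of 763 kb, including its start. Mdga2 encodes a cell surface protein of neurons that limits synapse formation. The INDEL calls of T-ALL inside the loss had a median depth of 14 reads, against 16 in the rest of the region, a ratio of 0.875. The ratio in the other libraries, 5 of them with a table and no row there, ran from 0.563 (AUL) to 0.933 (B-ALL and M-MPAL), with 0.813 in the Empty control, over 7 to 20 INDELs each. At these few sites the ratio of T-ALL was within the range of the others. Of its 16 INDELs there 15 were called heterozygous, against 14 of 14 in B-ALL, 17 of 20 in AML, 9 of 11 in M-MPAL, 7 of 9 in T-MPAL, 11 of 19 in AUL and 7 of 7 in the Empty control.

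A 1 kb row in an intron of Mdga2, at chr12:67058001-67059000, was called at 289 copies in T-MPAL, 283 in M-MPAL, 263 in B-ALL, 260 in AML and 239 in T-ALL. The Empty control had no row there. Over the genome 10 rows of B-ALL were matched in the other 4 whole leukaemia tables and not in the control, and this was the only 1 with at least 100 copies in all of them. A second high row, 3 kb at chr12:74802001-74805000, was called in all of the 6 tables, at 136 copies in T-MPAL, 131 in AML, 129 in M-MPAL, 128 in B-ALL, 121 in T-ALL and 142 in the Empty control. The lack of the Mdga2 row in the control is a lack of a call, and its reads there were not analysed here.

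The remaining rows were each found in 1 or 2 libraries. B-ALL had a gain to 3 copies of 102 kb between genes (chr12:16341001-16443000), joined to a 1 kb row, and a 1 kb row at 10 copies in an intron of Sos2, a Ras exchange factor gene. T-ALL and AML shared a 2 kb gain at chr12:105435001-105437000, with 4 and 5 copies. M-MPAL had a 2 kb loss to 1 copy at chr12:62650001-62652000. The Empty control had a 7 kb row at 0 copies, 2 joined gains to 3 copies and a 9 kb gain to 6 copies in an intron of Gphn, the gene of the synaptic scaffold gephyrin.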

How the data were processed

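Reads were mapped with BWA to mouse build mm10, per the submitters' processing notes, and BWA's version is not stated. The authors' SNV and INDEL tables come from samtools and their copy number tables from FREEC, all annotated with ANNOVAR and dbSNP 142, per the file names and headers. Each deposited call has a quality score (Phred scale, lowest 20), its read depth and its number of alternative reads. The deposited copy numbers are whole copies in steps of 1 kb. The planned depth was 30x, from 150 bp read pairs of 350 bp fragments, per the labels. Of 13 samples, 6 on integration sites were not analysed here.

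INDELs were matched by position and alleles. The members, gene lists and definitions were chosen with earlier results of these data known. The rule for named genes took Mycn, listed genes with a protein-altering variant private to 1 library or 1 pair or inside a copy number row under 5 Mb, other genes with such a variant in the stringent set, and genes touched by rows of 20 kb or more. It gave Mycn, Twist1, Dhrs7 and Mdga2, and the other genes were named after their values were seen. Gene spans are RefSeq's (GRCm38.p6). Intervals are exact, at the 95% level (Clopper-Pearson for shares), and reads carry no molecular identifiers. The upper limit given for protein-altering private SNVs of AUL is approximate. The functions for depth ratios, for private calls and for keeping 1 call per 1 kb were tested on simulated data. The other functions were not. The tools were Python 3.11.15 with pandas 2.3.3, numpy 2.4.6, matplotlib 3.10.9 and scipy 1.17.1.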

Additional observations from a re-analysis of the deposited data

How the results depend on the processing

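The depth ratio of AUL stayed above 1 in the alternatives run, from 1.13 (scaled by the mean) to 1.19 (outside repeats and segmental duplications) at SNVs and from 1.17 (matched by position alone) to 1.24 (outside segmental duplications) at INDELs, and in 23 of 23 bins of 5 Mb. The percent of AUL SNVs with shares between 0.4 and 0.6 was 44.3 with at least 10 reads as the only filter. Private SNV counts moved by over 1.5 times with at least 5 reads in T-ALL (196), AML (161) and B-ALL (129). With at least 20 reads AUL had 252, T-ALL 69, M-MPAL 59, T-MPAL 54, AML 42, B-ALL 37 and the Empty control 43. In the stringent set they were 9, 30, 13, 206, 43, 29 and 7 in B-ALL, T-ALL, AML, AUL, M-MPAL, T-MPAL and the Empty control. Outside repeats and segmental duplications they were 20, 45, 16, 142, 42, 26 and 20 in that order. AUL had from 2.05 to 4.79 times the next library's private SNVs under all 8 settings. Private INDELs were 357, 554, 397, 590, 274, 271 and 358 with at least 20 reads, in the same order, where AUL came first. They were 70, 129, 76, 124, 91, 61 and 55 in the stringent set, and 631, 802, 712, 739, 531, 521 and 627 with no INDEL within 10 bp in another library. C>T changes of AUL were 60.7% in the stringent set, 55.6% with at least 20 reads and 52.8% outside repeats and segmental duplications. Copy number rows of 10 kb or more numbered 1 each in B-ALL and T-ALL, 0 in AML, M-MPAL and T-MPAL and 1 in the Empty control, and T-MPAL had 1 row that no control row overlapped. The MPAL fractions shared 23 SNVs in the stringent set and 28 with at least 20 reads, and B-ALL and AML 11 and 16. These filters keep fewer or more calls by construction. Of 158 alternative values 99 moved little and 59 moved. The 99 include all depth ratios, also those of the libraries other than AUL, and none of the 59 was a depth ratio. The order of AUL and T-ALL for private INDELs turned with at least 20 reads. No paired analysis was possible because each group had 1 library. Median depths of 15 to 16 reads at INDELs and 30 to 33 at SNVs limit each share.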
